A study of Mus musculus with 12 samples.

Results

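Complement and coagulation genes, the liver-made proteases, cofactors and inhibitors of blood plasma, were followed in the livers of male mouse offspring whose mothers and who themselves ate a control or an obesogenic diet. The 40 genes were taken by symbol from a list of liver-expressed members of both cascades, and 39 of them had a row among the 12086 genes of the expression table; Klkb1, which encodes plasma prekallikrein, was not analysed here. Livers came from wild-type C57BL/6 males at postnatal day 84, fasted according to the series description, and RNA was sequenced from whole tissue. Dams ate standard chow (7% simple carbohydrates and 3% lipids by weight) or an obesogenic diet (10% and 20%) supplemented with sweetened condensed milk (by weight 55% simple carbohydrate, with lipids and protein at 8% each), through mating, pregnancy and lactation. Litters were set to 6 pups on postnatal day 3, and sons were weaned on day 21 onto either diet. Groups carry a letter for the dam's diet and then one for the son's: CC had control diet throughout (3 libraries), CO an obesogenic diet after weaning only (2 libraries of the 3 labelled samples), OC an obesogenic dam and control diet after weaning (3), and OO obesogenic diet in both (3). Libraries are written CC.0, CO.1 and so on; their numbers pair nothing, and it is not given which sons shared a litter, so p-values measure the spread between these libraries.

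Complement is a cascade of plasma proteases that marks and lyses microbes. Its classical and lectin branches begin with recognition molecules (C1q, mannose-binding lectins) and their proteases, which cut C4 and C2; the alternative branch feeds C3 cleavage through factor B, and the late components C5 to C9 assemble a membrane pore. Coagulation is a parallel protease cascade that ends in thrombin and fibrin, held back by antithrombin and the protein C system and undone by plasmin. Hepatocytes make most of these proteins, many of them as acute phase proteins that change with inflammation, whereas C1q is made mainly by macrophages.

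Values are counts scaled by 1 factor per library, close to CPM (counts scaled to a common library total), and depth ran from 3976160 reads in OO.1 to 27837604 in OO.0, so that 3 reads correspond to a value of 0.1 to 0.829. The lowest member value was 5.28; these limits cover counting error only. Certain libraries stood apart before any comparison. The acute phase gene Saa1, a serum amyloid, stood at 5045 in CO.1 and 3415 in OC.1 and at 14.4 to 388.9 in the other 9 libraries. Exocrine pancreas transcripts summed to 5233 in library OC.0, to 3277 in CO.1, and to 770.9 in CC.1. The neutrophil markers S100a8 and S100a9 summed to 7.00 and 24.9 in CO and to 1.11 to 4.98 elsewhere. Of 4 measured hepatocyte markers, the urea cycle gene Cps1 and the aminotransferase gene Tat were lower on the obesogenic offspring diet. The other 2, Ttr and Apoa1, averaged 3263 and 8008 in CO beside 4379 and 8673 in CC. In OO they averaged 4511 and 6740, beside 4100 and 6620 in OC. The 4-marker sum was 21852 to 28847 in CC, 17434 to 19130 in OC, 13842 to 19113 in CO and 13469 to 18625 in OO. In whole tissue, fewer cells of a type and less RNA of single genes per cell cannot be told apart.

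Only C4a among the 39 measured members passed the test, and it was higher in the sons given the obesogenic diet. C4a lies on chromosome 17, as does C4b, the gene of complement C4. That protein is cut by the C1 and mannose-binding lectin proteases to build the C3 convertase. C4a is also known as Slp, sex-limited protein, and in the C57BL/6J reference it is annotated as a transcribed pseudogene by RefSeq and as a processed transcript by GENCODE. The reference transcripts are near-copies, with 96.14% identity over 5367 aligned bases, a longest identical run of 433 bases, and 35.23% of the 50-base words of C4a found unchanged in C4b. Because reads from those stretches can be placed on either gene, the split between them depends on the counting, a step the sources used here do not describe. The 90-base stretch that differs most is shown in both genes, as it is where reads can tell the pair apart. It lies in exon 21 of 41 (GENCODE M21, build GRCm38, minus strand), at chr17:34816086-34816175 in C4a and at chr17:34735430-34735519 in the coding sequence of C4b, and capitals mark the 14 differing bases.
C4a: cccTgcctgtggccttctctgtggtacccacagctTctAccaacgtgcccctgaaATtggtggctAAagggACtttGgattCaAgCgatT
C4b: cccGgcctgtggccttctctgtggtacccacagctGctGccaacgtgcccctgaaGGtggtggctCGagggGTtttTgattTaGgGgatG

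C4a stood at 10.1, 7.48 and 10.9 in CC and at 58.7 and 89.1 in CO. It was 6.93, 25.4 and 5.28 in OC and 25.4, 17.1 and 55.7 in OO. Both CO libraries lay far above every CC library, whereas OO overlapped OC through OC.1 alone. Group levels were 9.51 ± 1.80 (SD, n = 3) in CC, 73.9 ± 21.5 (SD, n = 2) in CO, 12.5 ± 11.2 (SD, n = 3) in OC and 32.8 ± 20.3 (SD, n = 3) in OO. CO exceeded CC by 2.88 ± 0.58 on the log2 scale (SE), or 7.36-fold (limma's moderated test, adjusted p = 0.0353). Averaged over both maternal diets the offspring diet difference was 2.19 ± 0.39, or 4.58-fold (adjusted p = 0.011), while OO against OC gave 1.51 ± 0.51 without passing (adjusted p = 0.436). The CO against CC call did not hold when any 1 of the 5 CC and CO libraries was left out (log2 difference 2.58 to 3.18); the averaged call held with each single library left out but not without OC.0 and CO.1, the libraries with most pancreas transcripts (log2 difference 1.93, adjusted p = 0.108; 0.000625 to 0.108 over the alternatives).

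C4b, chosen for description after its values were seen because it shares reads with C4a, had smaller differences. It stood at 675.1, 765.9 and 726.5 in CC, 1169 and 1470 in CO, 669.6, 1419 and 752.5 in OC, and 917, 1225 and 1391 in OO. The CO libraries were above CC, and OC.1 was within the range of the obesogenic-fed libraries. The averaged offspring diet difference of C4b was 0.62 ± 0.20 on the log2 scale and did not pass (adjusted p = 0.105), although DESeq2 on recovered reads called it (adjusted p = 0.0371). C4a amounted to 0.977% to 1.5% of C4b in CC, 5.02% and 6.06% in CO, 0.702% to 1.79% in OC and 1.40% to 4.01% in OO. When both genes were summed in each library, an alternative chosen after seeing the data, neither the CO against CC difference of 0.92 (adjusted p = 0.141) nor the averaged difference of 0.66 (adjusted p = 0.0894) passed. That sum is nearly C4b itself, so it describes the pair and does not bear on the call of C4a.

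**Figure D1:**
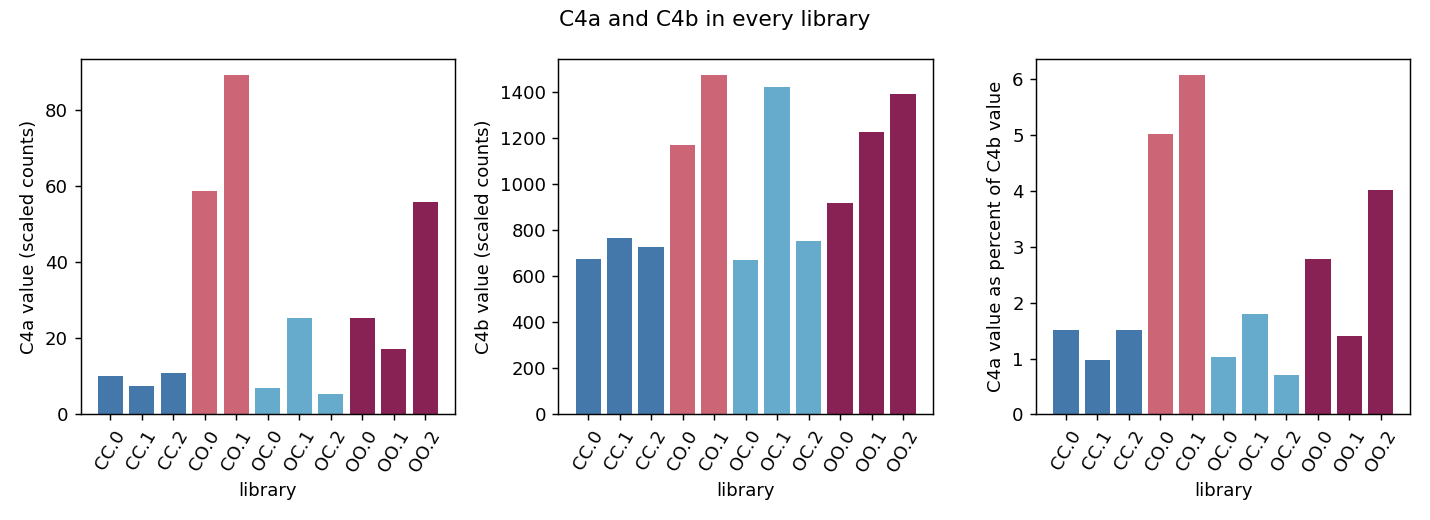
Values of C4a (left) and C4b (middle), in scaled counts, and C4a as a percent of C4b (right), in each of the 11 libraries; colours mark the groups (blue CC, pink CO, light blue OC, purple OO). Both CO libraries had the highest C4a (58.7 and 89.1) and the highest share (5.02% and 6.06%), and C4b of OC.1 (1419) was as high as in the obesogenic-fed libraries.

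Of the chains of C1q, which starts the classical branch, C1qa alone separated the offspring diets, and none passed the threshold. C1qa, the A chain of C1q, stood at 31.9, 38.3 and 41.0 in CC and at 50.5 and 50.6 in CO. In OC it was 33.5, 50.03 and 37.4, and in OO 52.2, 50.9 and 50.2. All 5 obesogenic-fed libraries lay above all 6 control-fed ones, though OC.1 at 50.03 came close to the lowest of them at 50.16. Higher values throughout under both maternal diets held for 1 of 39 members (2.56%) and for 2.95% of all genes, which is near the background. The averaged offspring diet difference was 0.40 ± 0.11 on the log2 scale (adjusted p = 0.0648; 0.0188 to 0.255 over the alternatives), which passed with DESeq2 (0.0424) and when OC.1 was left out (0.0188). In control-fed OC.1, C1qb at 45.2 and C1qc at 61.6 were within or above the obesogenic-fed values, which ran from 41.7 to 46.5 and from 46.2 to 54.2. The neighbouring genes on chromosome 4 for the B and C chains gave 0.38 ± 0.12 (C1qb, adjusted p = 0.107) and 0.31 ± 0.14 (C1qc, adjusted p = 0.275). All 8 Kupffer cell and macrophage markers had an averaged offspring diet difference above 0 (median 0.26, none passing). All 8 were also above 0 for the averaged maternal diet (median 0.20, none passing). There C1qa, C1qb and C1qc gave 0.06, 0.09 and 0.19. The marker sum was 295.8 to 395.9 in CC, 388.1 to 453.2 in CO, 338.1 to 540.3 in OC and 456.2 to 498.3 in OO. The part of macrophage content in the C1q values was not tested.

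The other recognition molecules and early proteases went in different directions. Mannose-binding lectins bind sugars on microbes, and mice have 2 genes for them. Mbl1 stood at 101.4 to 178 in CC, 237 and 269.6 in CO, 130.6 to 232.8 in OC and 183.2 to 234.7 in OO; its averaged offspring diet difference was 0.54 ± 0.17 (adjusted p = 0.108). Mbl2 gave the opposite sign, -0.34 ± 0.19 (adjusted p = 0.367), and had the smallest unadjusted p of this role group for the maternal diet (0.31 ± 0.19, adjusted p = 0.822). Its values were 176.9, 311.0 and 197.3 in CC, 194.4 and 150.2 in CO, 224.4, 295.9 and 287.9 in OC, and 151.9, 228.9 and 290.7 in OO, with overlap between the CC, CO and OO libraries. The C1 proteases C1ra and C1s1, the lectin proteases Masp1 and Masp2, and C2, the C4 partner in the convertase, had averaged differences between -0.13 and 0.05 on the log2 scale. Over the 12 genes of the classical and lectin branches, 10 were above 0 in CO against CC with a median of 0.30, beside a median of -0.01 over all genes; in OO against OC 7 were above 0, with a median of 0.13.

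**Figure D2:**
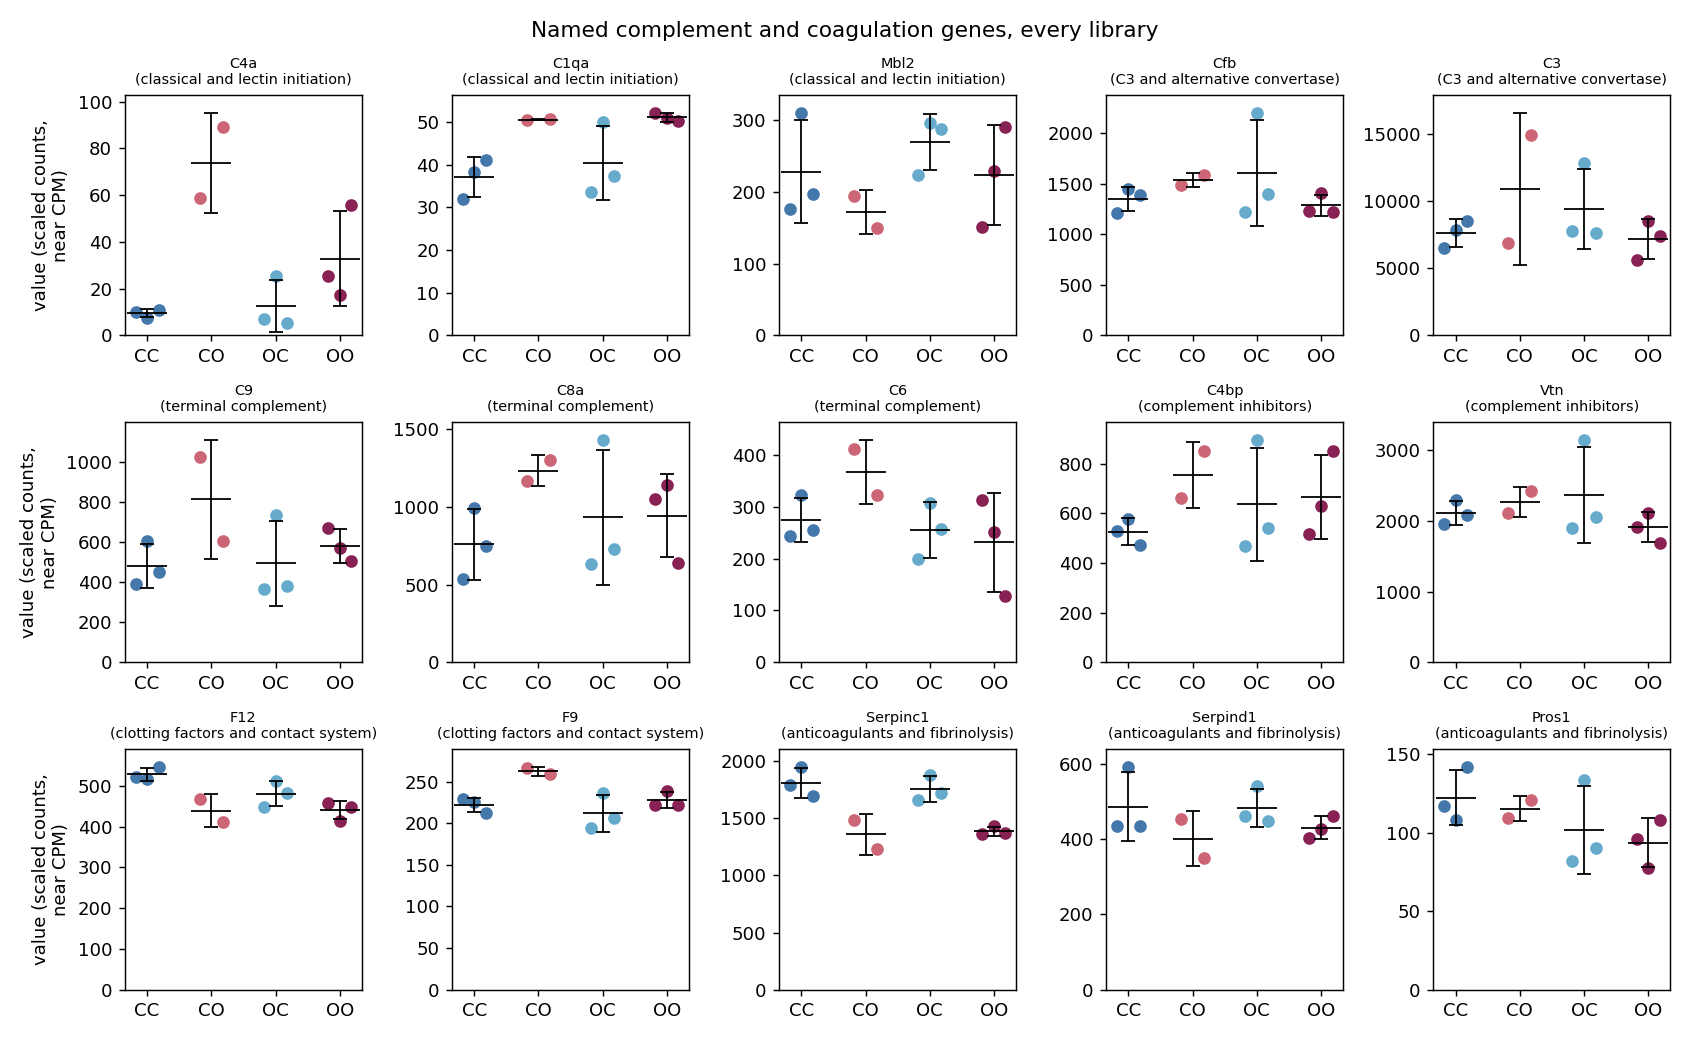
Values (scaled counts, near CPM, axes from 0) of the 15 members named by the rule, each point 1 library; black bars are the group mean and SD (n = 3, for CO n = 2). C1qa and Serpinc1 separate the 5 obesogenic-fed from the 6 control-fed libraries, and OC.1 is the highest OC library in every panel. Under both maternal diets, 2.95% of all genes were higher throughout on the obesogenic offspring diet and 2.85% lower.

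C3, the protein that all branches cleave, followed single libraries rather than groups. Factor B (Cfb), which the alternative branch adds to it, was highest in 1 library but also separated CO from CC and OO. C3 stood at 6496, 7829 and 8534 in CC, 6862 and 14907 in CO, 7737, 12831 and 7629 in OC, and 5588, 8507 and 7403 in OO. CO.1 and OC.1 were far above their group partners and the other libraries lay in 1 range. The averaged offspring diet difference of C3 was 0.02 ± 0.27 (adjusted p = 0.975) and its averaged maternal difference -0.13 ± 0.27 (adjusted p = 0.95). Cfb was 1214, 1447 and 1389 in CC, 1493 and 1585 in CO, 1222, 2206 and 1400 in OC, and 1237, 1409 and 1222 in OO. Here OC.1 was highest, and both CO libraries lay narrowly above all CC and all OO libraries. The averaged offspring difference was -0.04 ± 0.16 (adjusted p = 0.926).

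With limma on all libraries no late component passed in any comparison, and the SD between libraries of a group ran from 0.18 (C8g) to 0.55 (C8b) on the log2 scale. C9, the subunit that polymerises into the pore, stood at 389.6, 602.5 and 452.7 in CC and at 1022 and 604.0 in CO. It was 364.6, 736.3 and 378.7 in OC and 668.8, 569.6 and 503.1 in OO. CO.1 exceeded CC.1 by less than the spread between libraries, and OO lay above OC.0 and OC.2 but below OC.1. The averaged offspring difference of C9 was 0.52 ± 0.21 (adjusted p = 0.21; 0.0257 to 0.468 over the alternatives), and it passed when OC.1 and CO.1 were left out (0.87, adjusted p = 0.0257). C8a, a pore subunit encoded next to C8b on chromosome 4, was 538.2, 993.7 and 752.2 in CC, 1167 and 1304 in CO, 634.8, 1433 and 731.5 in OC, and 1054, 1142 and 640.0 in OO. Both CO libraries were above CC, the highest value of all was that of OC.1, and the averaged difference was 0.41 ± 0.24 (adjusted p = 0.403).

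C6, which joins the pore early, had the smallest unadjusted p of the late components for the maternal diet. Its values were 244.1, 322.6 and 254 in CC, 410.2 and 322.9 in CO, 199.1, 307.5 and 256.5 in OC, and 313.4, 251.3 and 127.6 in OO. OO.2 was the lowest library and all OO libraries lay below CO, with an averaged maternal difference of -0.43 ± 0.21 (adjusted p = 0.789). Of the 6 late components 5 were above 0 in CO against CC, all but C8g, with a median of 0.48; in OO against OC 3 were, with a median of 0.01. Hc, the gene of complement C5, gave 0.53 ± 0.26 in CO against CC and 0.03 ± 0.23 in OO against OC.

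Inhibitors of complement showed no passing difference. C4bp, the C4b-binding protein that takes the classical convertase apart, stood at 527.8, 579.3 and 472.8 in CC, 662.4 and 850.5 in CO, 469.2, 896.6 and 542.9 in OC, and 519, 631.2 and 849.7 in OO. CO was above CC, and OC and OO overlapped over their whole range, with an averaged offspring difference of 0.31 ± 0.18 (adjusted p = 0.402). Vtn, vitronectin, which keeps the late components from membranes, was 1958, 2290 and 2085 in CC, 2111 and 2416 in CO, 1900, 3142 and 2050 in OC, and 1911, 2115 and 1691 in OO. OC.1 was the highest library, the groups overlapped, and the averaged offspring and maternal differences were -0.09 ± 0.16 and -0.06 ± 0.16 (adjusted p = 0.812 and 0.963). Cfi, factor I, which cuts C3b and C4b, ranged from 483.7 in OO.0 to 752.1 in OC.1, with an averaged offspring difference of -0.05 ± 0.13.

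Clotting factors differed in how much they varied between libraries of a group, from an SD of 0.09 on the log2 scale for F12 and F9 to 0.39 for F11. F12, factor XII, the start of the contact system, stood at 522.3, 515.5 and 546.0 in CC, 467.6 and 410.0 in CO, 447.9, 511.1 and 483.4 in OC, and 458.0, 414.7 and 448.2 in OO. Each of the other 3 groups lay below CC, and the averaged offspring difference was -0.20 ± 0.09 (unadjusted p = 0.0391, adjusted p = 0.231 with limma). F9, factor IX, the gene affected in haemophilia B, was 228.9, 225.0 and 211.9 in CC, 266.0 and 258.7 in CO, 193.7, 236.8 and 205.7 in OC, and 221.8, 238.6 and 222.2 in OO. Both CO libraries were the highest of the 11, with an averaged offspring difference of 0.17 ± 0.08 (adjusted p = 0.259) and a maternal one of -0.14 ± 0.08 (adjusted p = 0.816).

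Prothrombin (F2), the cofactor gene F5, the proteases F7 and F10, which neighbour each other on chromosome 8, the factor XIII carrier subunit F13b and kininogen (Kng1) had averaged offspring differences between -0.19 and 0.13. F11, factor XI, had 0.41 ± 0.19 (adjusted p = 0.276), with values from 28.9 in OC.0 to 63.5 in CO.0. Over the 9 measured clotting genes, 3 were above 0 and 6 below in CO against CC (median -0.01) and the same numbers in OO against OC (median -0.10).

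Serpinc1, which encodes antithrombin, the main inhibitor of thrombin and factor Xa, was lower in every obesogenic-fed library. It stood at 1786, 1948 and 1691 in CC and 1482 and 1233 in CO, and at 1660, 1879 and 1720 in OC and 1358, 1429 and 1370 in OO. The 6 control-fed libraries (1660 to 1948) and the 5 obesogenic-fed ones (1233 to 1482) did not overlap, under either maternal diet. Lower values throughout under both maternal diets held for 1 of 39 members (2.56%) and for 2.85% of all genes, which is near the background. Group levels were 1808 ± 130 (SD, n = 3) in CC, 1358 ± 176 (SD, n = 2) in CO, 1753 ± 113 (SD, n = 3) in OC and 1385 ± 37.9 (SD, n = 3) in OO. The averaged difference was -0.38 ± 0.11 on the log2 scale, 1.30-fold lower, and did not pass the threshold (adjusted p = 0.0871 with limma, 0.0823 with edgeR; 0.000662 to 0.282 over the alternatives), while DESeq2 called it (0.000662). CO against CC gave -0.42 ± 0.17 (adjusted p = 0.237) and OO against OC -0.34 ± 0.15 (adjusted p = 0.605). The interaction of Serpinc1 was 0.08 ± 0.22 (adjusted p = 0.982).

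Serpind1, heparin cofactor II, a further thrombin inhibitor, had the same sign. It was 434, 591.7 and 433.9 in CC, 452.4 and 350.4 in CO, 461.9, 541.1 and 446.9 in OC, and 402.1, 427.5 and 462.4 in OO. The groups overlapped, and the averaged offspring difference was -0.22 ± 0.12 (adjusted p = 0.349). Pros1, protein S, the cofactor of activated protein C, was 117.3, 108.1 and 141.9 in CC, 109.7 and 121.2 in CO, 81.8, 133.7 and 89.99 in OC, and 95.8, 77.4 and 108.0 in OO. Every OO library was below CO but OC and CC overlapped, and the averaged maternal difference was -0.30 ± 0.14 (unadjusted p = 0.0547, adjusted p = 0.789 with limma). Proc (protein C) gave an averaged offspring difference of -0.09 ± 0.11.

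Genes of clot removal and its brakes had their highest values in CO.1 or OC.1. Cpb2, a carboxypeptidase that protects fibrin from plasmin, was highest in CO.1 at 532.4 and in OC.1 at 448.8, against 172.7 to 287.4 elsewhere. Plg, plasminogen, and Serpinf2, alpha-2-antiplasmin, were highest in OC.1 at 2670 and 923.4. Averaged offspring differences of these 3 were 0.30 ± 0.24, 0.07 ± 0.15 and 0.12 ± 0.17. Over the 7 anticoagulant and fibrinolysis genes, 4 were below 0 in CO against CC and all 7 in OO against OC, with medians of -0.08 and -0.10. Of all genes, 49.2% and 50% were above 0 in these comparisons. OC.1 was the highest OC library for each of the 7. Without OC.1, a setting chosen after seeing the data, Plg and Cpb2 were higher throughout in OO than in OC, and Serpinc1 lower.

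**Figure D3:**
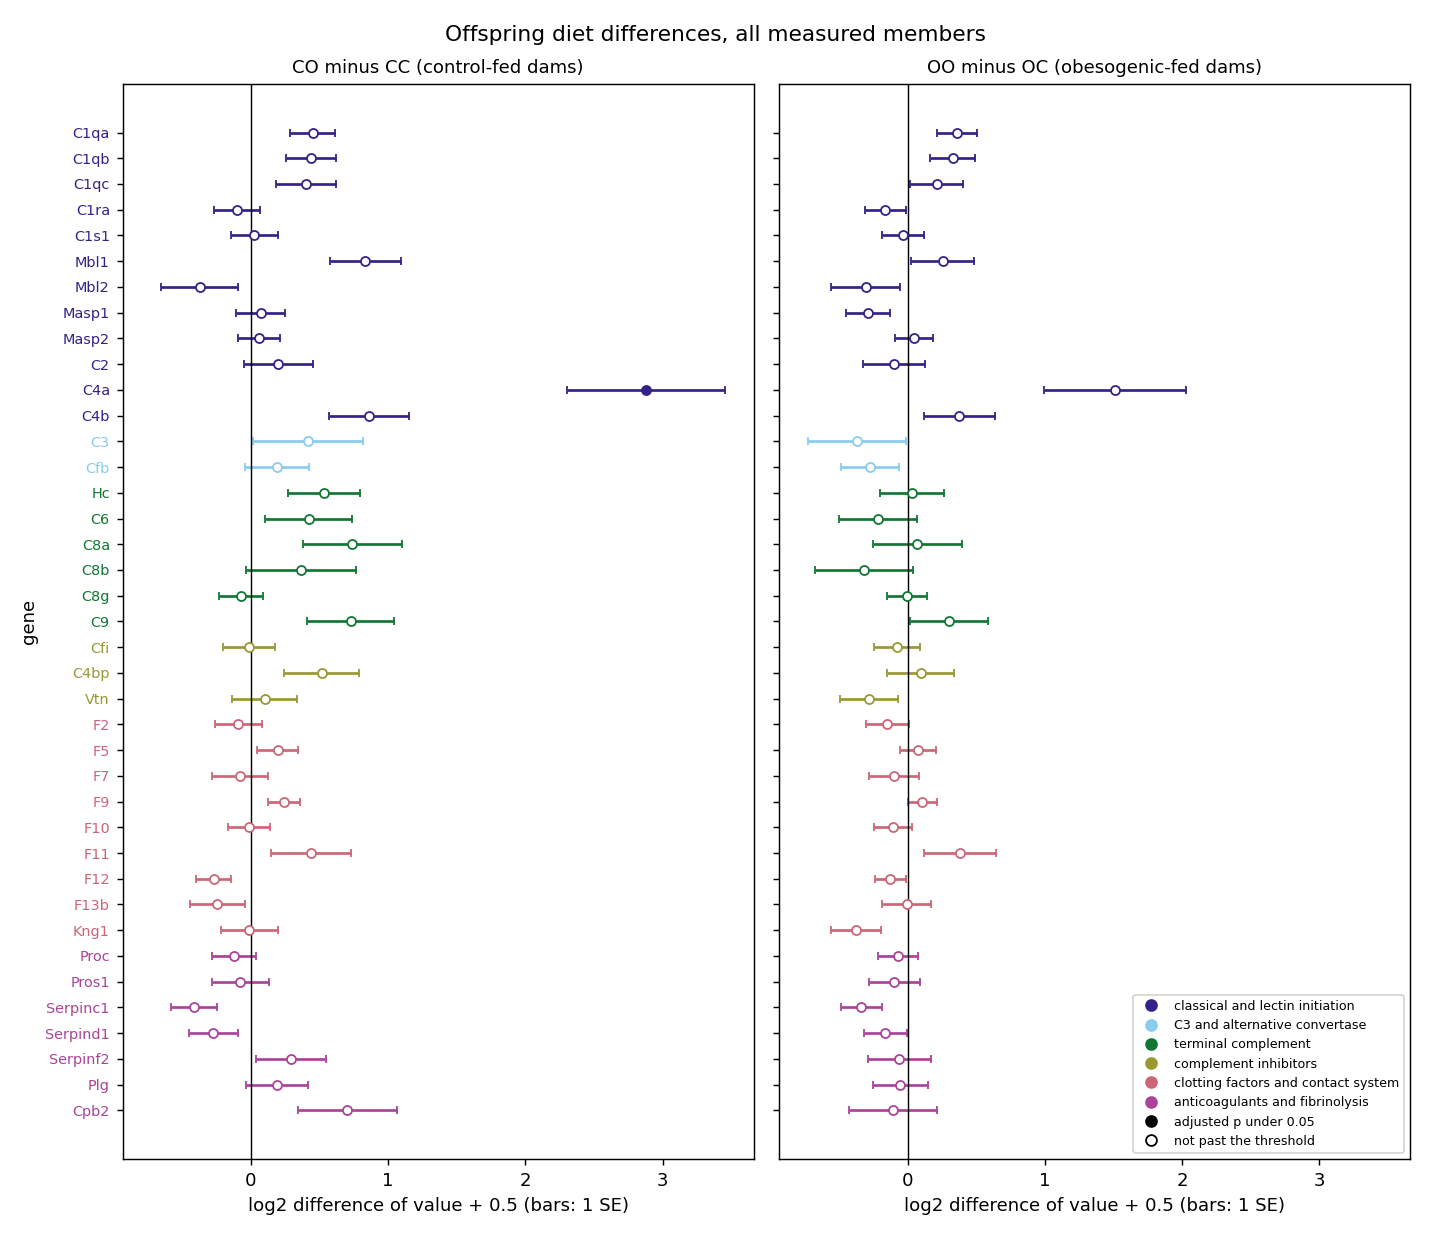
Log2 differences (bars 1 SE) of all 39 measured members between obesogenic-fed and control-fed sons of control dams (left) and of obesogenic dams (right), coloured by role; filled points pass an adjusted p of 0.05. C4a in CO against CC (2.88) is the only filled point.

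Set against all 12086 genes, calls among the members were few. With limma 1 of 39 (2.56%) passed in CO against CC, where 1.79% of all genes did, and 1 of 39 for the averaged offspring diet, where 3.96% did. In OO against OC 0 members passed (0.165% of all genes; 0 with edgeR and 0 with DESeq2). At an unadjusted p under 0.05, 7 of 39 members (17.9%) passed in CO against CC beside 16.8% of all genes, 8 (20.5%) for the averaged offspring diet beside 19.4%, and 3 (7.69%) in OO against OC beside 8.01%. Those shares are near the background.

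Maternal diet gave no call among the members with limma, edgeR or DESeq2. In OC against CC 0 members passed (0% of all genes), and 0 had an unadjusted p under 0.05 (5.26% of all genes). In OO against CO 0 passed (0.0414% of all genes) and 2, C4a and C6, had an unadjusted p under 0.05 (5.92% of all genes), both lower in OO. For the averaged maternal diet 0 passed (0.0331% of all genes) and 0 had an unadjusted p under 0.05 (6.13%). For the interaction, the offspring diet difference under obesogenic dams minus that under control dams, 0 passed (0.0331%) and 0 had an unadjusted p under 0.05 (4.56%). The interaction estimate was below 0 for 32 of 39 members and above 0 for 7, where 51.4% of all genes were above 0. Its median was -0.14 beside 0.01 over all genes, and all 5 members of the C3 and inhibitor groups had it below 0. OC values enter this estimate with a minus sign, and OC.1 was the highest OC library for 38 of 39 members. The part of OC.1 in these signs was not tested. Members that share libraries vary together, so the count of 32 is a description.

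Groups were also compared by whether their libraries overlapped at all. Every CO library lay above every CC library for 16 of 39 members (41%) beside 17% of all genes: C1qa, C1qb, C1qc, Mbl1, C4a, C4b, Cfb, Hc, C6, C8a, C9, C4bp, F5, F9, Plg and Cpb2. The reverse held for F2, F12 and Serpinc1 (7.69% beside 17.9%). In OO against OC, C1qa alone was higher throughout (2.56% beside 6.6%) and Kng1 and Serpinc1 lower (5.13% beside 6.14%). Both offspring diet comparisons separated in the same direction for C1qa (2.56% of members beside 2.95% of all genes higher in both) and Serpinc1 (2.56% beside 2.85% lower in both). Those 2 shares are near the background. Without OC.1, a setting chosen after seeing the data, 11 members (28.2%) were higher throughout in OO than in OC beside 14.1% of all genes, namely C1qa, C1qb, C1qc, C4a, C4b, Hc, C9, F9, F11, Plg and Cpb2; 2 were lower beside 12.6%.

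Between maternal diets, OO lay below CO for 12 members (30.8%) beside 9.48% of all genes, and above it for 0 (10.5%). The 12 were Mbl1, C4a, Cfb, Hc, C6, C8a, F9, F10, Kng1, Pros1, Plg and Cpb2. OC lay above CC for 0 members (5.32% of all genes) and below it for F12 alone (6.14%). CO against CC and OO against CO share the same 2 CO libraries, 1 of which is CO.1. No test of these shares was made, and members that vary together in a library are counted separately.

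**Figure D4:**
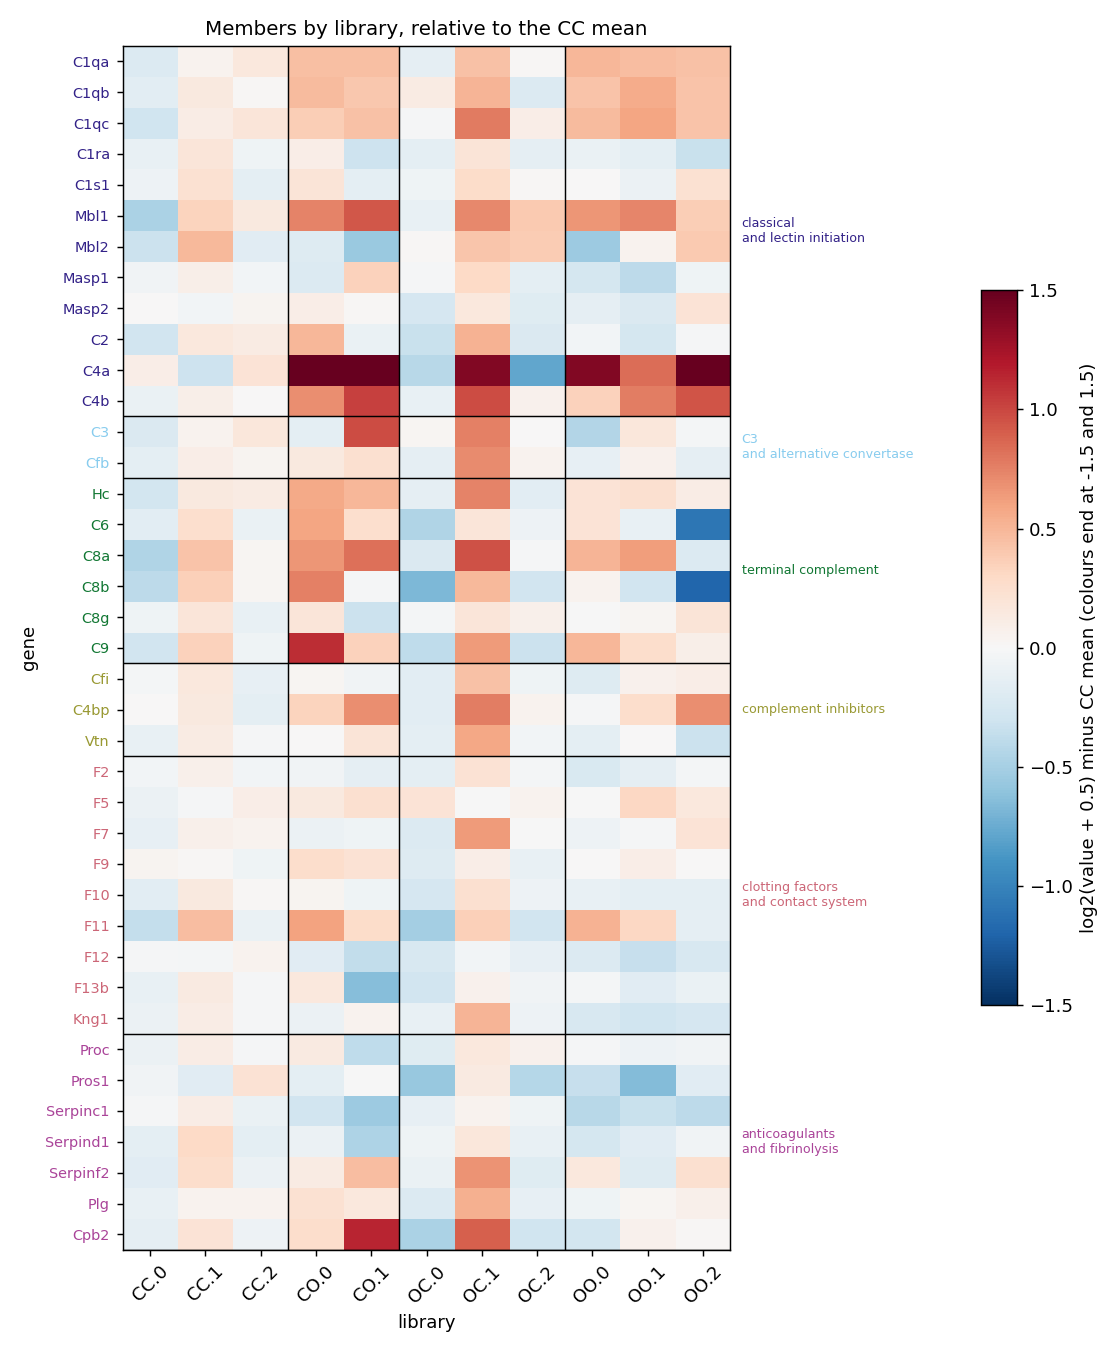
All 39 measured members (rows, by role) in the 11 libraries (columns), as log2(value + 0.5) minus the CC mean; red is higher, blue lower, and colours end at 1.5 in each direction. The OC.1 column is red for nearly every gene, the Serpinc1 row is blue in all CO and OO libraries, and C4a is beyond the end of the colours in both CO libraries and OO.2.

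Library OC.1 stood above its group for most members. It had the highest value of the 3 OC libraries for 38 of 39 members (97.4%), all but F5, beside 37.7% of all genes, and the highest of all 11 libraries for 17 members (43.6%) beside 9.04% of all genes. The OC.1 excess over the mean of OC.0 and OC.2 ran on the log2 scale from -0.14 (F5) and 0.14 (F12) to 1.29 (Cpb2) and 1.98 (C4a). CO.1, the other library with high Saa1, was the higher CO library for only 17 of 39 members: C3 and Cpb2 exceeded CO.0 by 1.12 and 0.89, but F13b, C8b and C9 lay below CO.0 by log2 differences of -0.79, -0.77 and -0.76. The acute phase list, 16 measured genes such as the haptoglobin gene Hp and Hpx, averaged 3.50 above CC in CO.1 and 2.81 in OC.1 on the log2 scale, and between -0.29 and 0.99 in the others. The role groups averaged 0.23 (clotting factors) to 0.74 (C3 and factor B) above CC in OC.1 and -0.05 to 0.61 in CO.1. Whether the acute phase state of those livers sets the member levels was not tested.

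**Figure D5:**
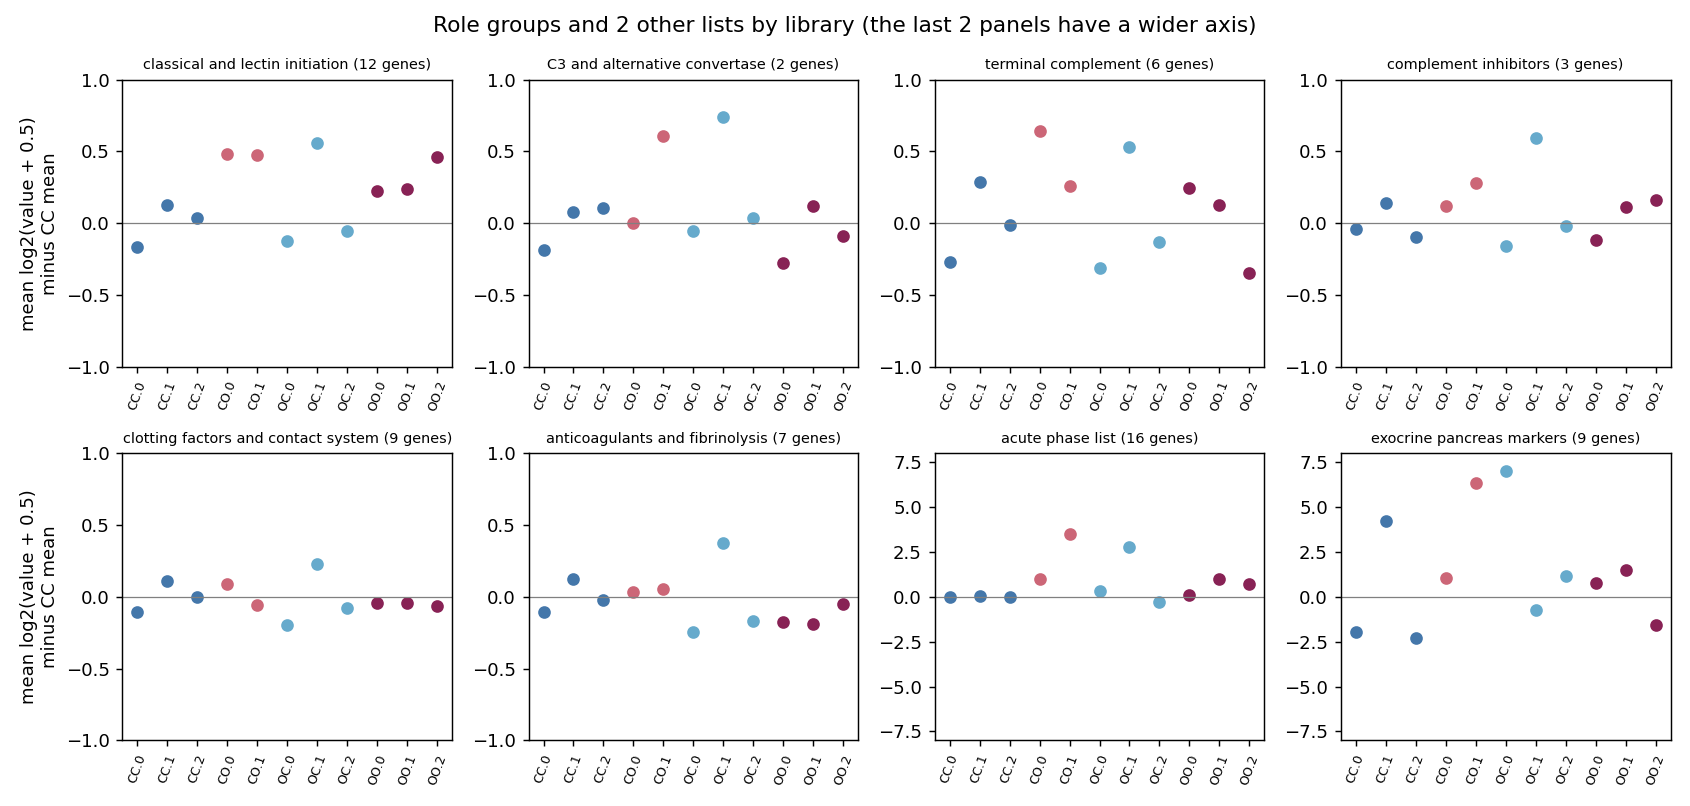
Mean log2(value + 0.5) minus the CC mean, by library, for the 6 role groups (axis -1 to 1) and for the acute phase list and the exocrine pancreas markers (axis -8 to 8); points are libraries, coloured by group as above. OC.1 is the highest OC point in every role group, and CO.1 is close to it in the acute phase panel but below CO.0 in the terminal complement and clotting panels.

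Among the wider pathway, 36 of 47 further genes of complement and haemostasis were measured, and with limma 1 (2.78%) passed in CO against CC, where 1.79% of all genes did. DESeq2 called 5 of them in that comparison, Serpina10, Fga, Fgb, Fgg and Vwf, and edgeR Serpina10 alone. Of all 12086 genes, DESeq2 called 466 there, edgeR 156 and limma 216. Serpina10, the protein Z-dependent inhibitor of factor Xa, stood at 105.4, 158.2 and 123.5 in CC, 274.2 and 554.7 in CO, 124.4, 303.8 and 158.8 in OC, and 160.9, 176.7 and 185.6 in OO. CO exceeded CC by 1.61 ± 0.35 (3.06-fold, adjusted p = 0.0441), whereas OO against OC gave -0.06 ± 0.31. The call did not hold without CO.1 (1.10, adjusted p = 0.277; 0.000253 to 0.277 over the alternatives), and the interaction of -1.67 ± 0.47 had an adjusted p of 0.936. Its plasma partner gene Proz ranged from 158.4 in CC.0 to 334.7 in OC.1.

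The fibrinogen chain genes followed CO.1 most. Fgg, the gamma chain, was 2623, 3392 and 2656 in CC, 4646 and 8683 in CO, 2643, 4928 and 2464 in OC, and 3604, 3635 and 2786 in OO. CO was above CC, with CO.1 the highest library, and the averaged offspring difference was 0.60 ± 0.24 (adjusted p = 0.183); in CO against CC it was 1.15 ± 0.35 (adjusted p = 0.122 with limma, 0.00685 with DESeq2). Vwf, von Willebrand factor, which is made by endothelium, was 14.9, 12.3 and 14.8 in CC, 20.0 and 25.8 in CO, 17.7, 14.6 and 16.9 in OC, and 16.3, 18.2 and 20.8 in OO. CO was above all CC and OC libraries, and the averaged difference of 0.42 ± 0.11 fell short (adjusted p = 0.0586; 0.0481 to 0.28 over the alternatives); in CO against CC it was 0.68 ± 0.17 (adjusted p = 0.0675 with limma, 0.0453 with DESeq2). The sum of 6 endothelial markers lay between 325.6 and 386.5 in all libraries. Of the 36 genes 32 were above 0 in CO against CC (median 0.26) and 26 in OO against OC (median 0.06).

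The promoters of members were searched for short motifs of liver and inflammation factors. RefSeq promoter entries (GRCm38.p6, 250 bases before the start to 50 after) matched 29 of the 39 measured members. On either strand, the STAT motif TTCNNNGAA was in 6 of 29 (20.7%; C8a, Masp2, C1ra, Vtn, Pros1 and F9) and in 8.47% of all 27025 promoters, and the HNF1 motif GTTAAT in 8 of 29 (27.6%; C4bp, F13b, Hc, F2, C8b, C8a, C1ra and Vtn) and in 7.2%. The C/EBP letters TTGNNNAA were in 16 of 29 (55.2%) and in 36.9% of all, the NF-kB letters GGGNNTTTC in 1 (3.45%) and in 4.46%, and the ISRE core GAAANNGAA in 1 (3.45%) and in 8.57%. Motifs with N can overlap on the same bases, and such overlaps were kept. STAT factors carry interleukin-6 signals, and HNF1 is a hepatocyte factor. A match is a description of letters only. The members with both, C8a, C1ra and Vtn, did not share a pattern. C8a was higher in both CO libraries than in CC. C1ra stood at 376.4 in CO.0 and 282.5 in CO.1, the latter below its lowest CC library at 322.9. Vtn stood at 2111 and 2416 in CO and overlapped CC, at 1958 to 2290. Shown, for their letters alone, are the 250 bases before the start of C8a, which holds both, and of Serpinc1, which holds neither; capitals mark a STAT or HNF1 match. They lie at chr4:104876399-104876648 (minus strand) and chr1:160978333-160978582 (plus strand).
C8a: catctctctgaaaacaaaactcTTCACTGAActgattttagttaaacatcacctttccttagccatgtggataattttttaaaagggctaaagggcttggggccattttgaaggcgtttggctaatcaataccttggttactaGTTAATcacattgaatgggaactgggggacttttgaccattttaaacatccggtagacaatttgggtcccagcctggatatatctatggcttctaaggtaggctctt
Serpinc1: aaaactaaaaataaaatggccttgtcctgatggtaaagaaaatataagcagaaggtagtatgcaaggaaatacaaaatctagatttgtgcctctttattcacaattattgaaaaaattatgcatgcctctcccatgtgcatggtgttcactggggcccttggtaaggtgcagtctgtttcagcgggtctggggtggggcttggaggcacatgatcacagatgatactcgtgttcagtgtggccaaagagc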

How the data were processed

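Total RNA of whole liver was made into TruSeq libraries, per the labels' protocols, and aligned, per the submitters' processing notes, with Bowtie 1.2.3 to mm8. How reads were counted, on which annotation and strand, and how they were scaled is not given in the sources used. The deposited values are a signal, counts divided by 1 factor per library: column sums ran from 929699 to 1099404, and 95.5% to 97.3% of a library's values came out as whole reads (tolerance 0.01). The table names them CPM, and the planned test on the log scale was kept. Its 11 columns show the group but not the sample among 12 labelled ones. Symbols matched 11965 of 12086 genes.

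limma 3.58.1 (R 4.3.3), with an intensity trend on log2(value + 0.5), was fitted to all genes and 11 libraries with 1 mean per group (7 residual and 4.66 prior degrees of freedom), and Benjamini-Hochberg adjustment at 0.05 over 12086 genes in each of 7 comparisons. All genes met a minimum value of 1 in 3 libraries. Differences understate changes of low genes. It was checked on simulated counts. edgeR 4.0.16 (quasi-likelihood, TMM) and DESeq2 1.42.0 ran on recovered reads. Other alternatives were pseudocounts of 0.1 and 2, a minimum value of 5, median-of-ratios scaling, only the compared groups, each library left out and 2 pairs of libraries left out.

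Members and lists were chosen with earlier results of these data known. Members named with all values are those that passed in any comparison and, in each role group, the 2 with the smallest unadjusted p for the averaged offspring diet and the 1 for the averaged maternal diet; of other pathway genes, those that passed and the 3 with the smallest p for the offspring diet. C4b, C1qb, C1qc, Mbl1, Hc, F11, Cfi, Proc, Cpb2, Plg, Serpinf2 and Proz were named after their values were seen. Replicate numbers are not in the labels. No coordinates were taken from the deposited files, and reference sequences carry their own build.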

Additional observations from a re-analysis of the deposited data

How the results depend on the processing

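The number of members called in CO against CC (1 with all libraries) ranged from 0 to 1 with single libraries left out and was 0 when any CC or CO library was missing, 0 without CO.1 together with OC.1 or OC.0, and 2 with DESeq2, which added Serpinc1. For the averaged offspring diet (1 member) it ranged from 1 to 4 with single libraries left out, the 4 without OC.1 being C1qa, C1qb, C4a and C4b. Leaving out OC.1 and CO.1 gave 3 (C4a, C4b and C9), leaving out OC.0 and CO.1 gave 0, and the count was 4 with DESeq2 (C1qa, C4a, C4b and Serpinc1). The other 5 comparisons kept 0 members under every alternative run. Of all 12086 genes, DESeq2 called 466 in CO against CC and 770 for the averaged offspring diet, where limma called 216 and 479. Shares of all genes with libraries left out are not given here. Members whose libraries did not overlap in OO against OC were 3 with all libraries and 13 without OC.1. Of all genes, 6.6% were higher and 6.14% lower throughout with all libraries, and 14.1% and 12.6% without OC.1. Signs turned for differences that had not passed. Without OC.1 the averaged offspring difference was 0.0845 for Cfb and 0.0217 for Vtn, and without OC.1 and CO.1 it was 0.063 for Cfb. For C3 it was -0.0306 without CC.0, -0.26 without CO.1, -0.0345 without OC.0, -0.0396 without OC.2, -0.0426 without OO.1, -0.13 with both OC.1 and CO.1 left out and -0.31 with OC.0 and CO.1 left out. The averaged maternal difference of C3 was 0.15 without CO.1, 0.0311 with OC.1 and CO.1 left out and 0.21 with OC.0 and CO.1 left out; that of Vtn was 0.00883 without OC.0 and 0.0576 without OC.0 and CO.1. All 192 recomputed role-group medians stayed within 1 SD between libraries of the main value. That margin was wider than some of the medians, so it does not show whether a median kept its sign. The causes were not tested. Median-of-ratios scaling left the median of all genes within -0.01 and 0.01. No paired analysis was run, since the labels give no replicate numbers and tie the numbers in the column names to no animal, litter or batch. With 2 CO libraries, leaving 1 out assumes that the other varies like the remaining groups. Depth limits no member value, since the lowest, 5.28, is above the 3-read level of 0.44 in its library.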
